A study of Mus musculus with 2 samples.

Results

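The cadherin superfamily was examined as 79 genes out of 36400 gene names on the array. Members were the names in the scanner files that begin with Cdh, Pcdh or Celsr followed by a digit or letter, read from non-control spots, and the brightest probe over both arrays stood for each gene. They comprised 18 classical cadherins, 35 clustered protocadherins of the Pcdha, Pcdhb and Pcdhg groups and 26 others. The RNA was that of neural stem and progenitor cells (NSPCs) made from mouse ES cells by way of embryoid bodies and kept as tertiary neurospheres, which are floating balls of dividing neural cells. Both groups were neurospheres at passage 2, taken after 18 days of culture counted from the embryoid bodies. The control group carried the control for overexpression and the other group overexpressed the microRNA miR-153, with 1 array in each of the 2 groups. How miR-153 was delivered, how many cultures or clones gave the RNA and the strain of the stem cells are not given in the sources used here.

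Cadherins are calcium-dependent adhesion proteins that bind like molecules on neighbouring cells. Classical cadherins are tied to actin by catenins, with N-cadherin (Cdh2) forming the junctions of the neural epithelium. Clustered protocadherins come from the alpha, beta and gamma gene clusters and give single neurons a surface identity, while Celsr proteins are large multi-pass cadherins of planar polarity that guide neuron migration and axon growth. A microRNA lowers messenger RNAs that pair with its seed, bases 2 to 8. The labels do not say which arm of miR-153 was raised, so both RefSeq mature sequences (GRCm38.p6, chromosome 12) are shown with the seed in capitals.
mmu-miR-153-3p: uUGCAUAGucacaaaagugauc
mmu-miR-153-5p: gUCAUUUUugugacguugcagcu
The letters complementary to the seed of the 3p arm, CTATGCA, were in 0 of the 99 probes of the superfamily and in 0.336% of all 55681 probes. Those of the 5p arm, AAAATGA, were in 1 of the 99, for Pcdhb19, and in 1.12% of all probes. A probe covers a small stretch of a transcript, so no match says only that the letters are not in that stretch.

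Values are scanner intensities of 1-colour Agilent arrays. Of 59305 non-control spots on each array, the flag for a signal well above background was set for 52.5% (control) and 55.6% (miR-153), and 0 spots were saturated. A level is the log2 of the processed signal minus the log2 of the 75th percentile of its own array, which was 435 intensity units for control and 549 for miR-153. A difference is the level on the miR-153 array minus that on the control array. With 1 array per group there was no replicate and no test, so a difference of at least 2-fold is a rule of size that describes these 2 arrays. The number of arrays limits the precision. Repeat spots of a probe had a median SD of 0.07 for the difference (258 probes), and different probes of a gene had an SD of 0.47 (5022 genes), so smaller differences than the latter are not separated from the spread between probes. All 9 neural stem and progenitor markers, Nes, Sox2 and Fabp7 among them, were well above background on both arrays. In bulk RNA, fewer cells of a type and less RNA per cell cannot be told apart.

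As a set, members of this superfamily lay on the higher side on the miR-153 array, while the classical cadherins split evenly about 0. Of the 56 members measured on both arrays (well above background on each), 16 reached 2-fold higher there, 3 were at least 2-fold lower and 37 lay between. The share of all genes measured on both arrays that were higher was 9.22%, and 11.0% were lower. Among genes matched to RefSeq the shares were 11.1% higher and 9.83% lower, against 28.6% and 5.36% of the members. The median difference of the members was 0.50, beside -0.11 over all genes and 0.01 over RefSeq-matched genes. Of the 56, 39 (69.6%) lay above 0 against 50.4% of RefSeq-matched genes. By class, 5 of 10 classical cadherins (50%), 22 of 28 clustered protocadherins (78.6%) and 12 of 18 others (66.7%) lay above 0. Their medians were 0.15, 0.56 and 0.59. Past 2-fold, classical cadherins had 3 higher and 1 lower, clustered protocadherins 6 and 0, and the others 7 and 2. Of the members past 2-fold, 84.2% were higher, and scaling on spike-in RNA gave 95.5%, while the same change took the split of all genes from 45.5% to 64.9% higher and their median from -0.11 to 0.14. Of the members not measured on both arrays, 4 passed the background flag with miR-153 alone, 1 in control cells alone and 18 in neither. These are 5.06%, 1.27% and 22.8% of the members, beside 4.1%, 1.36% and 28% of RefSeq-matched genes. Over all genes the shares were 5.28%, 1.97% and 36.6%.

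**Figure D1:**
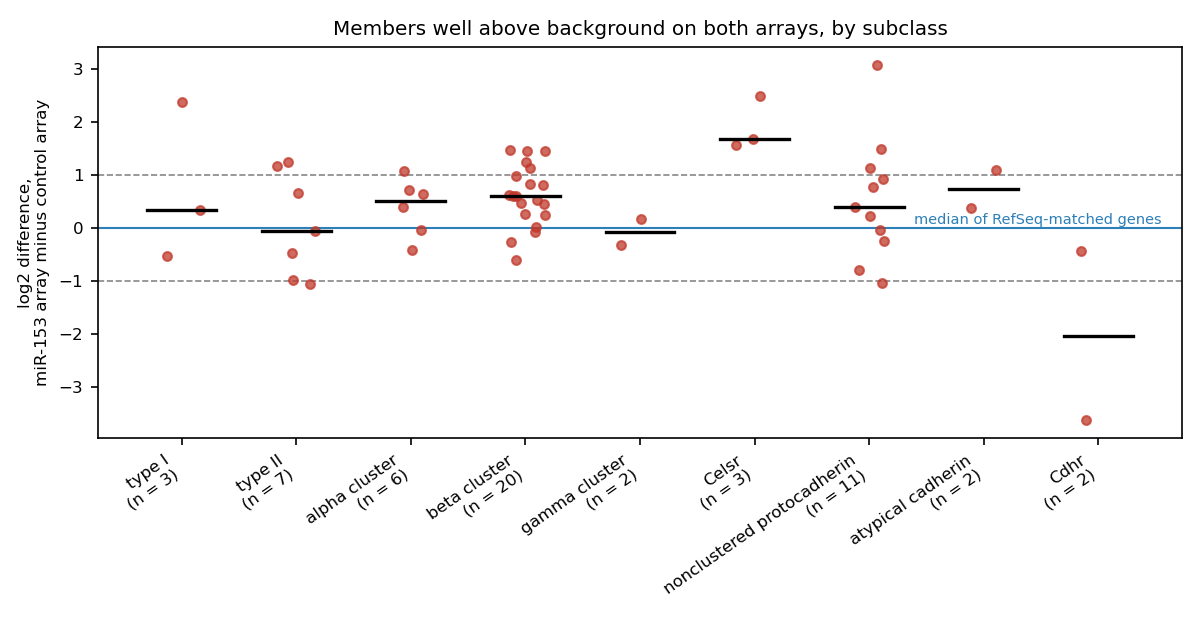
Log2 difference between the miR-153 and control arrays (vertical axis) for the 56 members well above background on both arrays, grouped by subclass, 1 point per gene. Black bars are subclass medians, the blue line is the median of RefSeq-matched genes (0.01) and dashed lines mark 2-fold. All 3 Celsr genes lie above the upper dashed line, 17 of the 20 beta cluster genes lie above 0, and the type II cadherins spread to both sides.

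Of the 5 type I classical cadherins, Cdh1 was higher with miR-153, Cdh15 was lower by a bound, Cdh2 and Cdh4 lay between and Cdh3 was not detected. Cdh1, or E-cadherin, the cadherin of epithelia and of pluripotent cells, had 10 repeat spots on each array. They read from 38.0 to 62.8 intensity units in control cells and from 298 to 370 with miR-153, so the spots of the arrays did not overlap. The level was -3.10 in control cells and -0.71 with miR-153, 5.24-fold higher, with a difference of 2.39 ± 0.30 (SD over 10 repeat spots, which is technical error only). Its probe lies at chr8:109193812-109193871 of mm9. Normexp background correction, which fits a model of the background and adds an offset that raises dim signals, put the difference at 1.44.

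Cdh2 was bright on both arrays, at a level of 5.35 in control cells and 5.70 with miR-153, a difference of 0.35. A second Cdh2 probe gave 0.46. The value depended on the scaling, at 0.75 under quantile normalization, 0.73 under lowess and 0.59 under spike-in scaling, all under 2-fold. Cdh4, or R-cadherin of the developing brain and retina, stood at 3.67 and 3.13, and its 3 probes all lay slightly below 0, from -0.54 to -0.22. Cdh15, the M-cadherin of muscle, read 55.6 intensity units in control cells and 16.9 with miR-153, where it was not well above background. It was at least 3.72-fold lower with miR-153. Such a bound compares the measured level with the gene's own signal on the other array or, where that is brighter, the dimmest level that still passed the background flag there, which was -4.34 for control and -4.86 for miR-153. Of all genes seen on the control array only, 69.3% had a bound of at least 2-fold. Under normexp the bound of Cdh15 was 1.80-fold. The 4 muscle markers (Myod1, Myog, Des and Myf5) did not pass the background flag on either array. Cdh3, the placental cadherin, did not pass the background flag on either array.

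**Figure D2:**
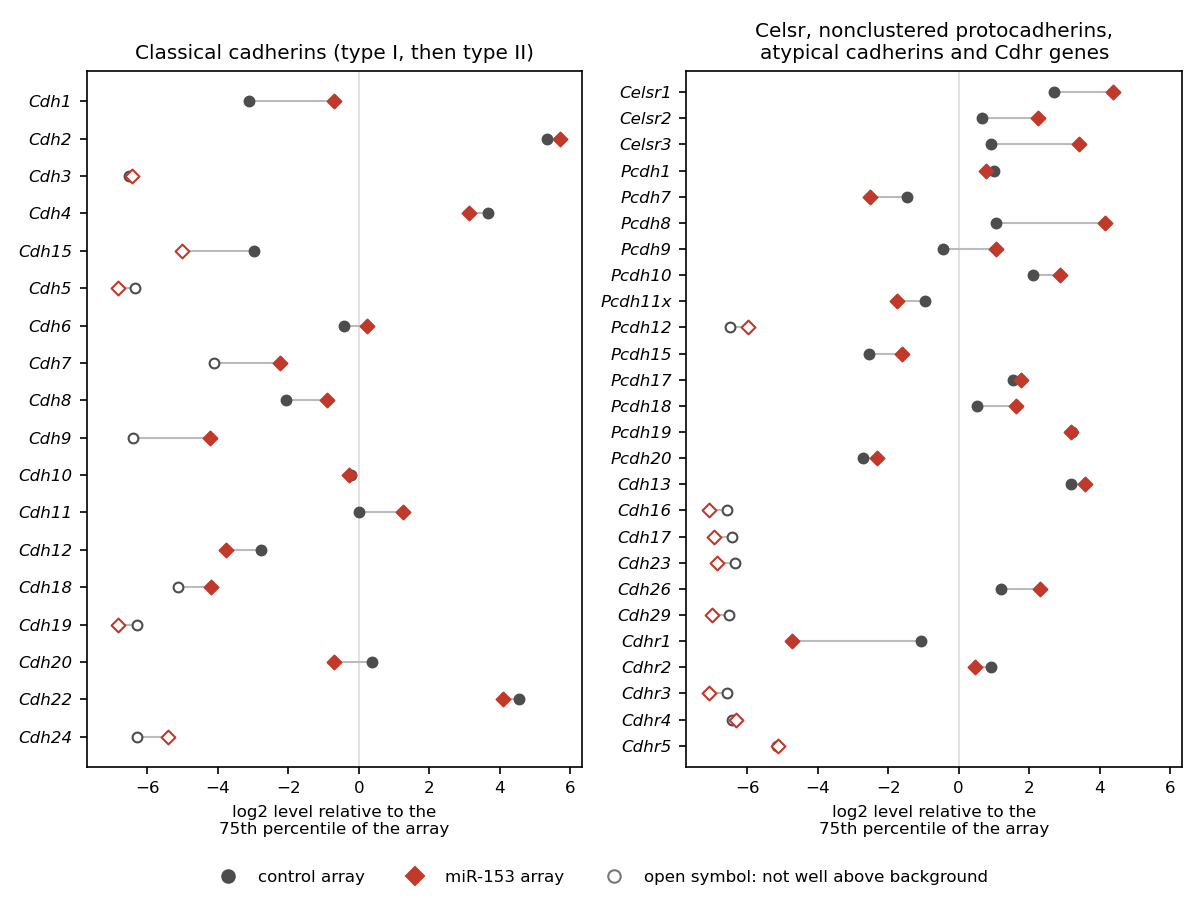
Log2 level relative to the 75th percentile of the array (horizontal axis) for each classical cadherin (left) and each Celsr, nonclustered protocadherin, atypical cadherin and Cdhr gene (right), with grey circles for the control array, red diamonds for the miR-153 array and open symbols for probes not well above background. The widest gaps between filled symbols are those of Cdhr1, at -3.64, and Pcdh8, at 3.08, as miR-153 minus control.

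Type II classical cadherins, which are expressed in patches that differ between brain regions and neuron classes, went both ways. Of 13, 7 were measured on both arrays, with 2 higher, 1 lower and a median of -0.05. These are 28.6% higher and 14.3% lower, against 11.1% and 9.83% of RefSeq-matched genes. Cdh11, found in mesenchyme and in parts of the brain, rested on a level of 0.02 in control cells and 1.27 with miR-153, 2.38-fold higher, and its second probe gave 0.74, so that the mean of both came to just under 2-fold (0.9963). Cdh8 stood at -2.07 and -0.90, 2.25-fold higher, or 0.79 as a log2 difference under normexp. In the other direction, Cdh20 stood at 0.37 and -0.70, 2.10-fold lower, and came to -0.91 under normexp and -0.82 under spike-in scaling. Each of these 3 differences fell under 2-fold in at least 1 alternative.

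The remaining type II genes were Cdh6 (0.66), Cdh10 (-0.05, or 0.19 under spike-in scaling), Cdh12 (-0.98, or -0.63 under normexp) and Cdh22 (-0.47), given as differences. Cdh22 was among the bright genes of the class, with 10201 intensity units in control cells and 9278 with miR-153. Cdh7, Cdh9 and Cdh18 passed the background flag with miR-153 alone. Among them, Cdh7 read 25.2 and 118 intensity units and was at least 3.70-fold higher, or at least 1.61-fold under normexp. Cdh9 (at least 1.08-fold) and Cdh18 (at least 1.11-fold, with no bound under normexp) were too dim to show more. Over all genes seen on the miR-153 array only, 19.2% had a bound of at least 2-fold. Cdh5, the VE-cadherin that defines endothelium, did not pass the background flag on either array, and neither were Cdh19 and Cdh24.

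All 3 Celsr genes were higher with miR-153, under each of the scalings and background corrections tried. Celsr1, which acts in dividing progenitors, read 2827 intensity units in control cells and 11388 with miR-153. Its level went from 2.70 to 4.37, a difference of 1.67 (3.19-fold), on a probe at chr15:85729381-85729440 of mm9. Celsr2, expressed in both progenitors and neurons, stood at 0.67 and 2.24, a difference of 1.57 (2.96-fold), and its second probe gave 1.15. Celsr3, of postmitotic neurons and needed for major axon tracts, read 830 and 5912 intensity units. Its levels of 0.93 and 3.43 differed by 2.50 (5.64-fold), on a probe at chr9:108755235-108755294. Over all alternatives the Celsr1 difference ranged from 1.67 to 1.92, that of Celsr2 from 1.36 to 1.81 and that of Celsr3 from 2.46 to 2.74.

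Planar polarity partners of Celsr did not pass 2-fold. Of 9 on the list, 8 were measured on both arrays and all 8 lay between, with a median of 0.34. Most RefSeq-matched genes also lay between, with 11.1% higher and 9.83% lower, so this count does not set these partners apart. Vangl2, the core polarity membrane protein, came nearest, at 0.36 in control cells and 1.33 with miR-153 (1.95-fold higher), and Dvl3, a cytoplasmic transducer, was at -0.85. Fzd3, the receptor that works with Celsr3 in axon tracts, was at -0.27, and Fzd6 did not pass the background flag on either array.

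Start-site regions of both Celsr genes held by the RefSeq promoter table (GRCm38.p6) are shown because these genes moved the same way. Each is 250 bases before to 50 bases after the start, and capitals mark any of 4 motifs searched on both strands: CAGGTG, an E-box bound by Snai and Zeb repressors; CAGCTG and CAGATG, E-boxes of proneural factors; and TATAAA. The Celsr2 region (chr3:108415530-108415829, minus strand) held CAGGTG at positions -172 and -30 from the start and CATCTG, the other strand of CAGATG, at -58. The Celsr3 region (chr9:108825795-108826094, plus strand) held 0 of the 4 motifs.
Celsr2: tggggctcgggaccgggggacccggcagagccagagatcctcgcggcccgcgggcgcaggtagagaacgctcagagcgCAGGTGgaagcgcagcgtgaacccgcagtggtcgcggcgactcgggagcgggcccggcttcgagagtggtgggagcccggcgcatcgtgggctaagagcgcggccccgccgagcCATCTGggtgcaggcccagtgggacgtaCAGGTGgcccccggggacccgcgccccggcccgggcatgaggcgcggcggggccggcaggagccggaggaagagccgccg
Celsr3: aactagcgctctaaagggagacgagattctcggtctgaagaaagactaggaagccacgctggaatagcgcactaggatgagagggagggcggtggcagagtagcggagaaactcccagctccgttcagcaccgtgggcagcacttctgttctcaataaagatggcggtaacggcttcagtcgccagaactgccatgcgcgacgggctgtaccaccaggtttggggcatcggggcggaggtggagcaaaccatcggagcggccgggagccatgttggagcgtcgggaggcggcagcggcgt
Both are rich in G and C, at 76.3% for Celsr2 and 60.7% for Celsr3, against a median of 52.7% over 32851 promoters. CpG pairs occurred at 0.94 and 0.947 of the number expected from base composition.

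Nonclustered protocadherins, which are expressed in regional patterns in the embryonic brain and act in cell sorting and axon growth, were led by Pcdh8. Of 12, 11 were measured on both arrays, with 3 higher, 1 lower and 7 between, and a median of 0.40. These are 27.3% higher and 9.09% lower, against 11.1% and 9.83% of RefSeq-matched genes. Pcdh8, known as arcadlin for its induction by synaptic activity and as paraxial protocadherin in the early embryo, read 908 intensity units in control cells and 9723 with miR-153. Its level went from 1.06 to 4.15, a difference of 3.08 (8.48-fold), the largest among members measured on both arrays in the upward direction. That probe lies at chr14:80166728-80166787 of mm9, and the difference stayed between 3.04 and 3.33 over the alternatives.

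The start-site region of Pcdh8 (GRCm38.p6, chr14:79771263-79771562, minus strand) is shown for this difference. It held 1 of the 4 motifs, a TATAAA in capitals whose first base lies at position -30. TATAAA was in 13.6% of all promoters and in 2 of the 32 promoters of 29 members in the table, those of Pcdh8 and Pcdh15.
Pcdh8: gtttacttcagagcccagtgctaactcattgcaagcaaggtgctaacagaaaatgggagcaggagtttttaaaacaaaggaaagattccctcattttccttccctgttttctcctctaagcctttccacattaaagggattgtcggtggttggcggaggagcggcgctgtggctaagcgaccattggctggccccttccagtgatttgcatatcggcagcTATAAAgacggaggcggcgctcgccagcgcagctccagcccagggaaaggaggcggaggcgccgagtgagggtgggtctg

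Pcdh9 and Pcdh18 were the other higher members of this group. Pcdh18 stood at 0.51 in control cells and 1.64 with miR-153, 2.18-fold higher. For Pcdh9 the brightest probe gave -0.44 and 1.06, 2.82-fold higher. A neighbouring Pcdh9 probe, above background only with miR-153, gave 1.74, but the remaining probe, 546 kb from the brightest, gave -0.003, at 44.4 and 55.9 intensity units. Averaging the probes measured on both arrays put Pcdh9 at 0.75.

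Pcdh7 was the lower member, at -1.47 in control cells and -2.51 with miR-153 (2.05-fold lower). Its 3 probes, up to 403 kb apart, all lay below 0, from -1.04 to -0.62, and only the brightest passed 2-fold. The call was lost under normexp (-0.77), quantile normalization (-0.97), lowess, spike-in scaling (-0.80), median scaling and the mean of its probes (-0.81).

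Between the limits lay Pcdh10 (0.77), which organises striatal axons, Pcdh20 (0.40), Pcdh17 (0.22), Pcdh19 (-0.04, or 0.20 under spike-in scaling), an X-linked gene mutated in a form of epilepsy, Pcdh1 (-0.24, or 0.0009 under spike-in scaling) and Pcdh11x (-0.79). The second Pcdh11x probe, 615 kb away, gave 0.12. Pcdh15, a tip-link protein of inner ear hair cells, had 6 probes, and the 2 that passed the background flag on both arrays disagreed, at 0.92 (0.42 under normexp) and -1.04. Pcdh12, an endothelial protocadherin, did not pass the background flag on either array. These genes make transcripts that differ in their ends, and which transcript each probe reads could not be told from the files.

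**Figure D3:**
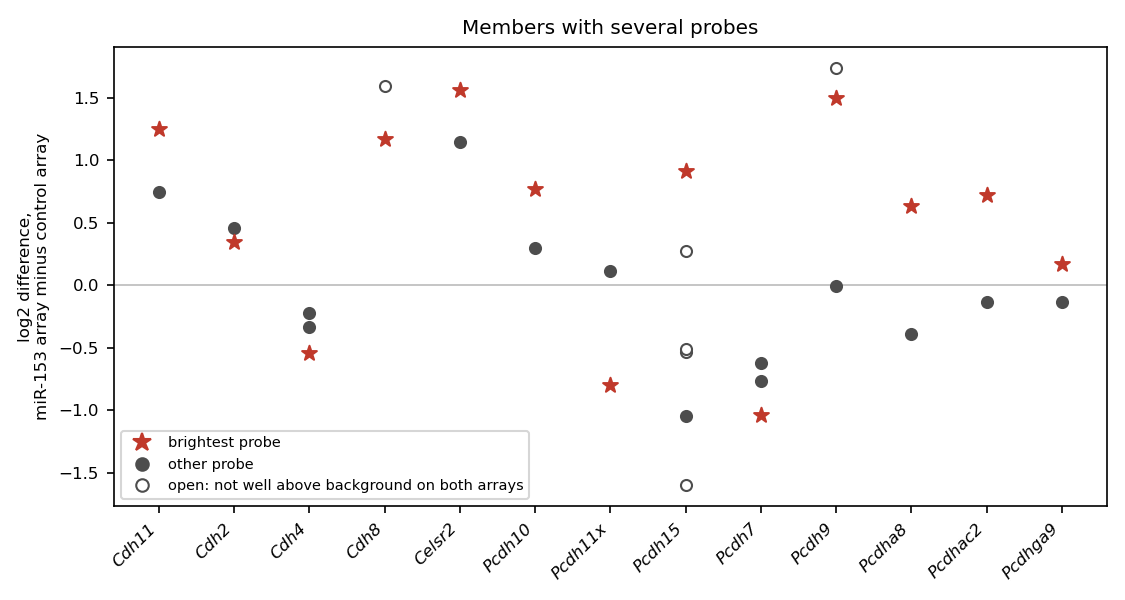
Log2 difference between the arrays (vertical axis) for every probe of the 13 members with several probes, with a star for the brightest probe, a circle for the others and open symbols for probes not well above background on both arrays. Probes lie close together for Cdh2 and Cdh4, and on both sides of 0 for Pcdh9, Pcdh11x, Pcdh15, Pcdha8, Pcdhac2 and Pcdhga9.

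Probe agreement was mixed over the superfamily. Of the 13 members with several probes, 12 had at least 2 probes measured on both arrays. In 6 of these every such probe had the same sign, and in the other 6 both signs occurred. The other 66 members rest on a single probe.

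Clustered protocadherins lie in tandem on mouse chromosome 18. In the alpha and gamma clusters each gene has a first exon of its own and shares its last exons with the whole cluster, while beta genes are single-exon genes. Of 35 members, 28 were measured on both arrays, with 6 higher, 0 lower and 22 between, and a median of 0.56 (0.36 under normexp). The 22 members of these 28 that lay above 0 make up 78.6%, against 50.4% of RefSeq-matched genes. The higher members make up 21.4%, against 11.1%, and 9.83% of RefSeq-matched genes were lower.

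In the beta cluster all 22 genes had a probe and 20 were measured on both arrays, with 5 higher, 0 lower and 15 between. The 5 higher genes are 25% of the 20, against 11.1% of RefSeq-matched genes. The differences ranged from -0.60 to 1.47, and their median of 0.60 came to 0.40 under normexp. Above 0 lay 17 of 20 (85%), against 50.4% of RefSeq-matched genes. Pcdhb10 read 439 intensity units in control cells and 1532 with miR-153, a difference of 1.47 (2.77-fold). Pcdhb17 (493 and 1698 intensity units) differed by 1.45, and Pcdhb2 (85.0 and 292 intensity units) by 1.45, or 0.95 under normexp. Pcdhb7 differed by 1.14, with 419 and 1163 intensity units. Pcdhb20, one of the bright clustered members, read 1322 and 2520 intensity units and differed by 0.60.

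Pcdhb3 had 10 repeat spots on each array, which read from 328 to 385 intensity units in control cells and from 994 to 1124 with miR-153, without overlap. Its difference was 1.24 ± 0.09 (SD over 10 repeat spots), or 2.36-fold. Pcdhb9 read 9.48 and 112 intensity units, passed the background flag with miR-153 alone, and was at least 4.15-fold higher (at least 1.93-fold under normexp). On the lower side were Pcdhb15 (-0.60), Pcdhb21 (-0.26) and Pcdhb19 (-0.08, or 0.16 under spike-in scaling). Pcdhb1 did not pass the background flag on either array.

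The differences are also given by stretches of the cluster. From Pcdhb1 to Pcdhb13, 11 of 13 genes were measured on both arrays, all 11 lay above 0 and their differences ran from 0.47 to 1.47, with a median of 0.83. From Pcdhb14 to Pcdhb22, 6 of 9 lay above 0, with a median of 0.25 and a range of -0.60 to 1.45. Under normexp the medians were 0.44 and 0.26. This division was chosen after the values were seen and is a description. No run of more than 12 bases was shared by any pair among the 38 probes of the 3 clusters, though the transcripts themselves are close relatives and cross-hybridisation was not tested.

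In the alpha cluster the differences went with the number of genes that the files list for a probe. The files list several genes for 3 probes, and these gave 1.08 (Pcdha4), 0.63 (Pcdha8) and 0.72 (Pcdhac2). Probes listing 1 gene gave 0.40 (Pcdha9), -0.05 (Pcdha11, or 0.20 under spike-in scaling), -0.13 (Pcdhac2), -0.39 (Pcdha8) and -0.41 (Pcdha12), a median of -0.13. These were also the dimmer probes, at 39.1 to 115 intensity units in control cells, against 188 to 2748 for those listing several genes. Brightness and the number of genes listed therefore cannot be told apart here. For Pcdhac2, the bright probe that stands for the gene lies 41.6 kb beyond the probe that lists Pcdhac2 alone, lists Pcdha4, Pcdha9 and Pcdhac1 as well, and read 2748 and 5711 intensity units. By the files' list, the value of 0.72 is thus not one of Pcdhac2 alone. Pcdhac1 did not pass the background flag on either array. Pcdha4, the alpha member past 2-fold (2.11-fold higher, at 188 and 501 intensity units), came to 0.83 under normexp.

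Of the 6 gamma genes, 2 were measured on both arrays and 0 passed 2-fold. The 2 probes named Pcdhga9 list several gamma genes and lie 20.5 kb and more beyond the last probe of a single gamma gene, that of Pcdhgc5. The brighter had 28737 intensity units in control cells and 40732 with miR-153, levels of 6.05 and 6.21 that differ by 0.17, and the other gave -0.13. The brighter came to 0.67 under quantile normalization and 0.62 under lowess. Of the 5 gamma probes that list 1 gene, 1 was measured on both arrays, Pcdhga1 at -0.33. Pcdhgb1, Pcdhga5, Pcdhga10 and Pcdhgc5 did not pass the background flag on either array.

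**Figure D4:**
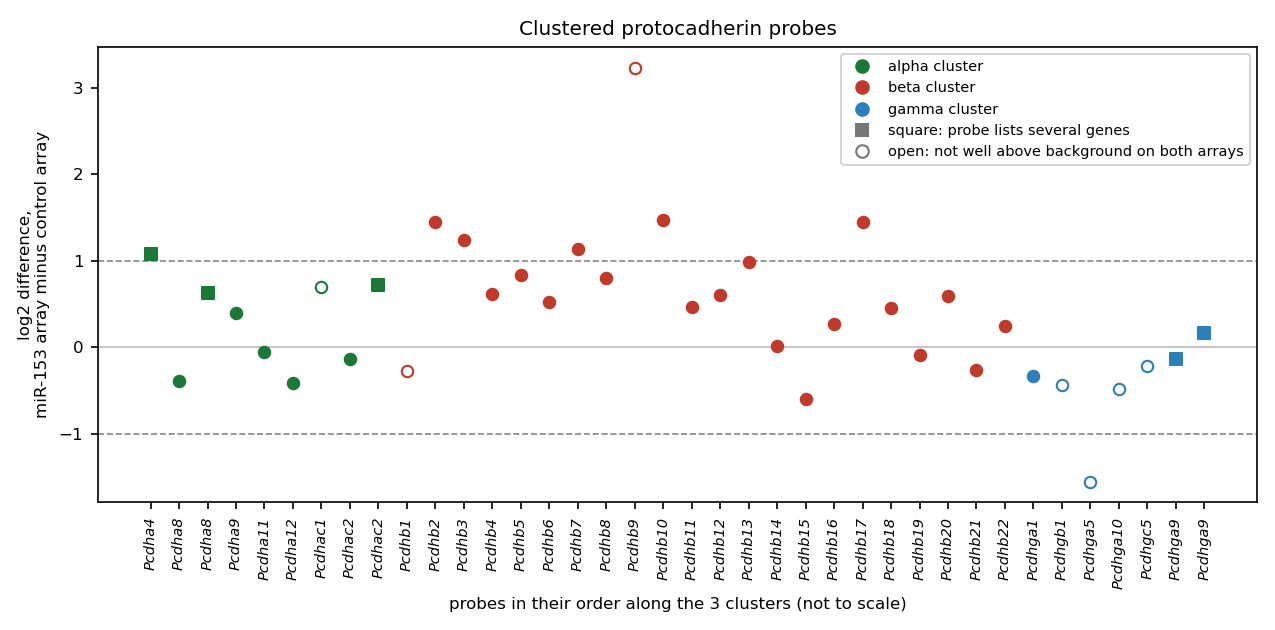
Log2 difference between the arrays (vertical axis) for the 38 probes of the alpha, beta and gamma protocadherin clusters in their order along the chromosome, not to scale, with squares for probes that list several genes and open symbols for probes not well above background on both arrays. Filled beta points from Pcdhb2 to Pcdhb13 all lie above 0, and in the alpha cluster the squares lie above the filled circles.

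Atypical cadherins and the Cdhr genes were mostly not detected, and held the widest difference of the superfamily. Cdhr1, the photoreceptor cadherin of retinal outer segments, read 207 intensity units in control cells and 20.9 with miR-153, where its spot was just well above background. Its levels of -1.08 and -4.71 differed by -3.64, which is 12.5-fold lower, or by -1.91 under normexp. Its probe lies at chr14:37891387-37891446 of mm9. Cdh26, an epithelial cadherin, stood at 1.20 and 2.30, 2.14-fold higher, under every alternative at least 1.06 on the log2 scale. Cdh13, or T-cadherin, which is anchored by a lipid and lacks a catenin-binding tail, differed by 0.38 at 4000 and 6590 intensity units, and Cdhr2 by -0.44. Cdh16, Cdh17, Cdh23, Cdh29, Cdhr3, Cdhr4 and Cdhr5 did not pass the background flag on either array. The probes of Cdh29 and Cdhr4 lie close together on the plus strand of chromosome 9, starting at 107897146 and 107897947 of mm9. Neither name matched RefSeq. Members are counted by name, and whether these are 2 names of 1 gene was not tested.

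The start-site region of Cdhr1 (GRCm38.p6, chr14:37098298-37098597, minus strand), the lower gene, is shown beside those of the higher ones. It held CACCTG, the other strand of CAGGTG, at position -119 and CAGCTG at position 12.
Cdhr1: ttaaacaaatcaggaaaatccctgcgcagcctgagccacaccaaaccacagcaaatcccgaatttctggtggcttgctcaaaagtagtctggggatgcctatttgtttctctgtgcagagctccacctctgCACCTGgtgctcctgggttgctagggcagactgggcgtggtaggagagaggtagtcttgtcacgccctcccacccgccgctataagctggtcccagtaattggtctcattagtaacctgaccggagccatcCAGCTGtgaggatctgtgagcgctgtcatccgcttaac
CAGGTG was in 9 of the 32 member promoters (28.1%) and in 20.2% of all promoters, CAGCTG in 12.5% and 16.3%, and CAGATG in 15.6% and 17.2%. A match is a description of the letters and not of a bound site. The members without an entry in the table, Cdh1 and Celsr1 among them, and all clustered protocadherins were not searched.

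Catenins link classical cadherins to actin, and the list also holds their plakophilin relatives. Of 13 on the list, 10 were measured on both arrays, with 2 higher, 1 lower and 7 between, and a median of 0.14. Among RefSeq-matched genes, 11.1% were higher and 9.83% lower. Ctnna2, the neuronal alpha-catenin, stood at 1.93 in control cells and 3.95 with miR-153 (4.07-fold higher), and Arvcf, a relative of p120-catenin, at -0.69 and 1.53 (4.67-fold higher). Ctnnb1, or beta-catenin, was at 0.14 and Ctnna1, the widespread alpha-catenin, at -0.15, both as differences. Pkp2, a plakophilin of desmosomes, stood at 0.16 and -2.22 (5.20-fold lower), and Pkp1 was at least 4.58-fold lower (at least 1.90-fold under normexp). The other neuronal catenin, Ctnnd2 (0.68), and the plakophilins Pkp3 (0.08) and Pkp4 (-0.88) lay between.

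Calsyntenins, synaptic relatives of cadherins, had 2 of 3 higher, Clstn3 at 1.37 and Clstn2 at 1.01 (under 2-fold with normexp, quantile normalization and lowess, down to 0.98). Giant cadherins of the Fat and Dachsous list had 0 of 6 measured past 2-fold, and 8 of 10 desmosomal genes did not pass the background flag on either array. Repressors of Cdh1 had 0 of 6 measured past 2-fold, with Snai1 at -0.74 and Zeb2 at 0.91, and Twist2 at least 2.07-fold lower, a bound of 1.49 to 1.93-fold under the 5 other scalings and corrections tried. Among 11 genes that control protocadherin promoter choice and looping, 0 passed 2-fold. Ctcf, the insulator protein of the clusters, was at 0.16 and the cohesin subunit Rad21 at -0.86. The 7 cadherin proteases also lay between, from Adam15 (-0.80) to Psen2 (0.90), with Adam10 at -0.53 and a median of 0.14. So did the 7 protocadherin effectors, from Ptk2b (-0.65) to Cyfip2 (0.86), with Fyn at -0.53 and a median of -0.21. Most RefSeq-matched genes lay between as well (11.1% higher and 9.83% lower). Counts of 0 in lists this small do not by themselves set the lists apart.

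Many markers of differentiated cells, and some of progenitors, were higher on the same array as the members that were higher. The summed level of the 7 neuron markers, in multiples of the 75th percentile, was 31.6 in control cells and 100.4 with miR-153, and 4 of 7 were at least 2-fold higher. That of the 6 oligodendrocyte markers was 71.1 and 112, with 5 of 6 higher. Olig1, the brightest of the 6 on both arrays, lay between at -0.38 and made up much of both sums. Of the 9 neural stem and progenitor markers, 2 were higher (Prom1 3.35-fold and Sox1 2.21-fold), 0 lower and 7 between, with sums of 720 and 667. Among those between, Nes was at -0.95 and Vim at -0.72. Mesenchyme markers, of interest beside Cdh11, had 4 of the 5 with a probe higher, with sums of 3.83 and 8.12. Of the neural crest and Schwann list, 2 of 5 were higher (3.18 and 9.03), and choroid plexus and ependyma markers 2 of 4 (2.18 and 6.81). The part of these cells in the differences above was not tested. Epithelium markers, of interest beside Cdh1, had 0 of the 4 measured out of 7 past 2-fold, with sums of 0.685 and 0.737, and Epcam, Krt19 and Cldn6 did not pass the background flag on either array. Pluripotency markers, which go with Cdh1 in stem cells, had 2 of 5 lower, with sums of 4.82 and 2.33. Endothelium markers had 0 of the 2 measured out of 6 past 2-fold. Their sums of 16.8 and 10.5 came almost wholly from Kdr, at log2 levels of 4.05 and 3.37. Pecam1, the other measured marker, was dim, at -3.48 and -3.74, and Tek, Cldn5 and Tie1 were not well above background.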

How the data were processed

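RNA was measured on 1 array per group. Intensity values are those the authors deposited. They were made with Feature Extraction 10.7.3.1 (Agilent), as the submitters' processing notes name it, and are linear, background-subtracted and detrended per the file headers. Flags for outliers, saturation and being well above background came with the deposited intensity values, and were used as given. The deposited series table holds the same intensities divided by about 381 (control) and 485 (miR-153), with column medians of 0.0662 and 0.0614.

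Here, 229 spots with an outlier flag were left out, repeat spots were averaged as log2 values, and 55674 probes gave 36400 gene names. A gene counted as well above background when every spot of its brightest probe was. Of the 79 members, 76 matched a RefSeq gene (GRCm38.p6) by accession, each under the same symbol. Probe positions are on mm9, per the file headers. Of several genes a probe may read, those in the files' accession column were matched to RefSeq.

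No test was run, since each group has 1 array. Named members were those past 2-fold or with such a bound, a set of core genes, the 4 brightest per class and the 4 largest differences per cluster. Some other members are named as well, while beta genes given no value of their own enter the counts and ranges only. Partner genes under 2-fold were picked after their values were seen. The members and lists were chosen with earlier results of these data known. Columns of other samples numbered 0. Normexp used limma 3.58.1 in R 4.3.3 with an offset of 50, and the steps were tested on simulated data. Other alternatives were quantile, lowess, median and spike-in scaling, the deposited table, both filters, averaged probes and outliers kept.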

Additional observations from a re-analysis of the deposited data

How the results depend on the processing

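The count of higher members stayed between 11 and 21 and the median of all members between 0.38 and 0.74 over the alternatives. The count of lower members was 3 in the main setting, 1 with normexp, with spike-in and with median scaling, 5 with no filter on dim probes and 0 with bright probes only, which keeps 29 members. Of 19 members past 2-fold, 12 stayed past it under every alternative that gave a value: Cdh1, Cdh26, Cdhr1, Celsr1, Celsr2, Celsr3, Pcdh8, Pcdh18, Pcdhb3, Pcdhb7, Pcdhb10 and Pcdhb17. None of the 19 turned sign, while 9 of all 56 measured members did. The deposited table, both filters and outliers kept gave the 19 members their main values or none, so these settings could not move them. Averaging probes could move only members with several probes. The settings that could move every one of the 19 were normexp and quantile, lowess, median and spike-in scaling. The median of classical cadherins was -0.06 with bright probes only, against 0.15. Leaving out cluster probes that list several genes, an alternative chosen after seeing the data, gave 15 higher members and moved the median of clustered protocadherins from 0.56 to 0.46. That median ranged from 0.36 with normexp to 0.81 with spike-in scaling. The bounds of Cdh7, Cdh15 and Pcdhb9 fell under 2-fold with normexp, whose offset raises dim signals. No paired analysis was possible because each group has 1 array.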
